A study of Mus musculus with 10 samples.

Results

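The cytosolic ribosomal protein genes were taken as the protein-coding genes whose mouse symbol was Rpl or Rps followed by a number, with or without a trailing a, x, l or further digits, together with the stalk genes Rplp0, Rplp1 and Rplp2 and with Rpsa. This gave 84 of the 32285 genes in the count table. By role, 43 encode proteins of the large subunit, 31 encode proteins of the small subunit, 3 encode the stalk, and 7 are paralog forms whose symbol is another member's symbol followed by l or l1 (Rpl10l, Rpl22l1, Rpl36al, Rpl39l, Rpl3l, Rpl7l1 and Rps27l). Kinases named after Rps6, pseudogenes and Rps27rt, a near copy of Rps27, were left out.

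RNA from blood of C57/BL6J mice, with leukocyte as the labelled cell type, was sequenced as 10 libraries. Each library held RNA of 3 mice of a group and each group had 1 library, so no group had a replicate. Control mice (Con) were bled at 0 h. Sleep-deprived mice (SD) were bled after 6, 12, 24 or 48 h, and mice under a sleep restriction protocol from earlier work (SASD) after 6, 12, 24, 48 or 120 h. All mice were anaesthetised with pentobarbital and bled behind the eye. How SD and SASD were applied, the age and sex of the mice, and the hour of bleeding are not stated in the labels.

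Ribosomal proteins bind ribosomal RNA to form the small subunit, which reads the messenger RNA, and the large subunit, which joins the amino acids. The cell makes them in matched amounts, and most of their messenger RNAs are short and abundant. Many of these messenger RNAs begin with a C and a run of pyrimidines, the terminal oligopyrimidine (TOP) motif, through which mTOR signalling and Larp1 control their translation and stability. Lymphocytes are rich in these messenger RNAs, while reticulocytes and platelets have no nucleus and carry only the RNA they inherited.

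Start-site windows are shown here for 10 members because windows with and without such a run occurred both among members called at 48 h and among members not called. Each window holds 15 bases before the RefSeq transcription start and 15 bases from the start on, in build GRCm38.p6 (the mm10 assembly), read 5′ to 3′ on the strand of the gene. Capitals mark a pyrimidine run, defined as a C followed by at least 5 bases that are each C or T, beginning within 10 bases of the start. The first 6 members listed were called higher at 48 h in the comparison below and the last 4 were not called.
Rps27, chr3:90213634-90213663, minus strand: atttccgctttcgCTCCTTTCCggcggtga
Rpl38, chr11:114668565-114668594, plus strand: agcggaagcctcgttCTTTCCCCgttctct
Rpl22l1, chr3:28805493-28805522, plus strand: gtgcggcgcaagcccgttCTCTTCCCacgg
Rps18, chr17:33955651-33955680, minus strand: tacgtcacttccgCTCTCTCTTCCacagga
Rps28, chr17:33824548-33824577, minus strand: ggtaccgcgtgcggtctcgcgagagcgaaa
Rpl36a, chrX:134585639-134585668, plus strand: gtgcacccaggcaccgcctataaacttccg
Rps6, chr4:86857353-86857382, minus strand: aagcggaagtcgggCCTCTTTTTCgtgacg
Rps2, chr17:24720048-24720077, plus strand: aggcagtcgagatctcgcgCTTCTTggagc
Rplp0, chr5:115559452-115559481, plus strand: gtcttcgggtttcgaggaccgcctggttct
Rpl27, chr11:101442230-101442259, plus strand: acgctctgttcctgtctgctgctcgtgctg

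Among the 64 members with a RefSeq start in the table used, 34 (53.1%) held such a run, against 21.9% of all 27025 genes in that table. Only the sense strand was searched. Of the members called higher at 48 h, 9 of 15 held a run, and of the members tested and not called, 24 of 46 did. A match describes the letters of the window and does not show where transcription started in these cells.

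Leukocyte markers were detected in every library, with no marker of T cells, B cells, neutrophils, monocytes or NK cells at 0. The libraries fell apart in their red cell content. Haemoglobin genes took 0.275% to 0.727% of counts in Con, SD 48 h and SASD 48 h and 3.57% to 6.96% in the other 7 libraries. Platelet markers summed to between 1588 and 9789 CPM (counts scaled to a common library size with edgeR's TMM factors), lowest in SASD 48 h and highest in SASD 24 h. Olfactory receptors, sensory neuron genes that leukocytes are not known to use, summed to 48.7 to 198.6 CPM in Con and the pair of 48 h libraries and to 15.9 to 21.1 CPM in the other 7. Total counts ran from 13927134 to 27501393 in Con, SD 48 h and SASD 48 h, with Con highest. In the other 7 they ran from 7825120 in SASD 24 h to 11141786. In bulk blood, fewer cells of a type and less RNA per cell cannot be told apart.

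Members took 4.89% of all counts in Con. In SD they took 3.98%, 4.27%, 3.62% and 5.70% after 6, 12, 24 and 48 h. In SASD they took 3.67%, 4.43%, 2.78%, 4.93% and 4.93% after 6, 12, 24, 48 and 120 h. The share was therefore highest in SD 48 h and lowest in SASD 24 h, with 64 of the 84 members at their own highest level in SD 48 h and 64 at their own lowest in SASD 24 h. Among all genes averaging 10 counts or more per library, 14.0% were highest in SD 48 h and 20.4% lowest in SASD 24 h, against 63 and 64 of the 81 members that passed this minimum. Exact 95% binomial intervals, which cover counting error only, reached from 2.77% to 2.79% in SASD 24 h and from 5.69% to 5.71% in SD 48 h. With haemoglobin genes taken out of the total the shares ran from 2.99% in SASD 24 h to 5.72% in SD 48 h, in the same 2 libraries.

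**Figure D1:**
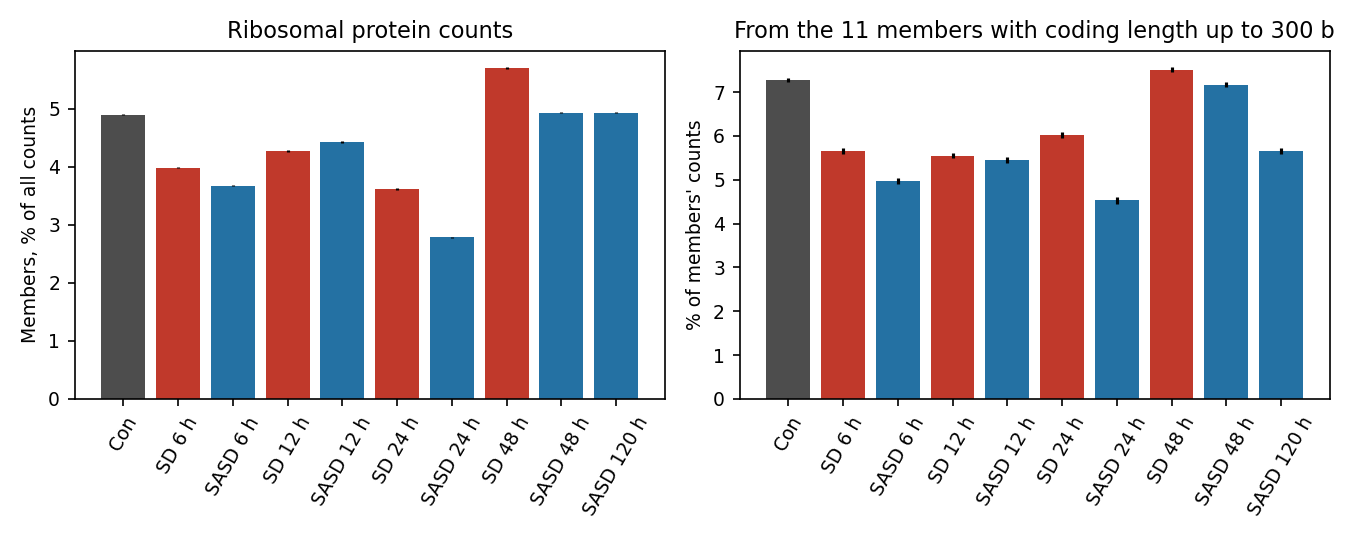
Left, counts in ribosomal protein genes as a percentage of all counts in each of the 10 libraries. Right, counts in the 11 members with a coding sequence of up to 300 bases as a percentage of the members' counts. Bars are single libraries and error bars are exact 95% binomial intervals. The right panel runs from 7.17% to 7.51% in Con, SD 48 h and SASD 48 h and from 4.53% to 6.03% in the others.

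The balance of RNA counts between small and large subunit genes also differed between libraries. The summed counts of small subunit genes were divided by those of large subunit and stalk genes together. This gave 0.815 in Con and, at 48 h, 0.821 in SD and 0.807 in SASD. In the other 7 libraries this ratio ran from 0.698 in SASD 24 h to 0.729 in SD 24 h, so these 3 libraries did not overlap with the 7. They were the same 3 libraries that had little haemoglobin RNA, more olfactory receptor counts and the most total counts. The part of each of these in the ratio was not tested.

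Rps27, which encodes a zinc-binding protein of the small subunit (chr3:90212522-90213651, minus strand, 4 exons, in mm10), differed most. Its level was 784 CPM in Con and, at 48 h, 1036 in SD and 785 in SASD. In the remaining SD libraries it was 350, 354 and 348 after 6, 12 and 24 h, and in SASD it was 268, 373, 184 and 396 after 6, 12, 24 and 120 h. Con and both 48 h libraries were thus all above the highest of the rest, SASD 120 h, with no overlap. Rps27rt, the near copy of Rps27 that lies outside the member rule, had 5.74 CPM in Con, 13.3 and 6.02 in the SD and SASD libraries of 48 h, and at most 3.19 elsewhere. Reads that fitted both genes were not counted, so the values of this pair are uncertain.

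The same 3 libraries stood above the other 7 for 21 members, while for 0 members did they stand below. Of all genes averaging 10 counts or more per library, 7.68% stood above in this way. Rps21, a short small subunit gene, had 295 CPM in Con and, at 48 h, 416 in SD and 305 in SASD against 94.4 to 225 in the 7, with a median of 196. Rps28, whose protein lies near the exit of the messenger RNA channel, had 247, 348 and 256 CPM against 103 to 192. Rpl38, a large subunit gene known for its need in skeletal patterning of the mouse embryo, had 149, 210 and 162 CPM against 69.9 to 115. In each of these genes SASD 24 h was the lowest library and SASD 120 h the highest of the 7.

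**Figure D2:**
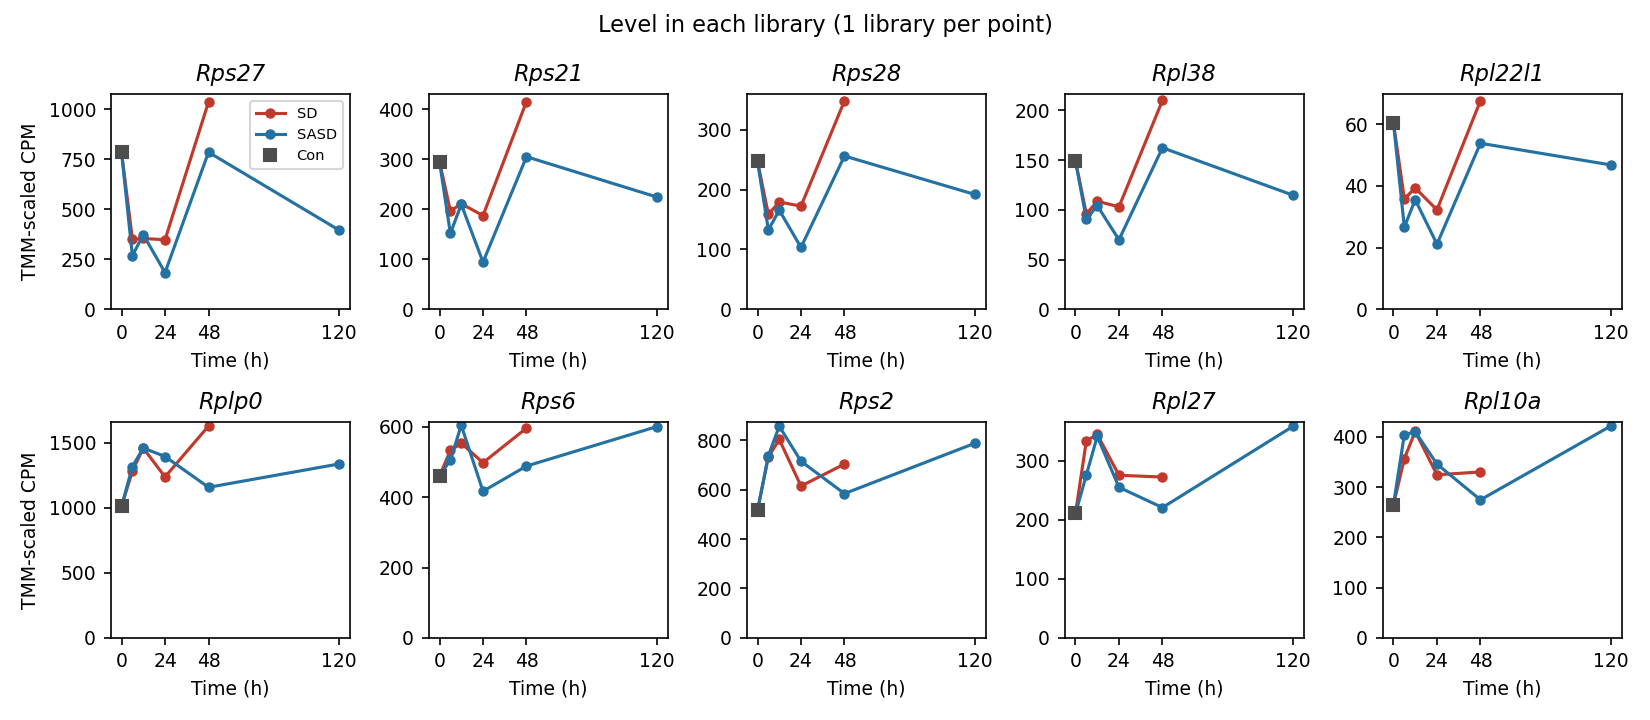
TMM-scaled CPM of 10 members against time in hours, 1 library per point, with Con as the square at 0 h, SD in red and SASD in blue. Rps27, Rps21, Rps28, Rpl38 and Rpl22l1 (top) were high in Con and at 48 h, while Rplp0, Rps6, Rps2, Rpl27 and Rpl10a (bottom) had their lowest value in Con or, for Rps6, in SASD 24 h.

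Whether members differed at 48 h from the earlier times was tested over the 8 libraries of SD and SASD at the 4 shared times, with method as a block. This contrast was chosen when the 48 h libraries were already known to stand apart, so its p-values are not those of an independent test. Members moved upward at 48 h: 19 of the 81 tested were called higher and 0 lower (edgeR quasi-likelihood test, Benjamini-Hochberg adjusted p under 0.05 over 13370 genes). Among all genes 9.97% were called, 3.58% higher, in numbers 478 higher and 855 lower. The members' median was 0.28 on the log2 scale, against 0.04 over all genes, and 73 of 81 lay above 0, against 54.6% of all genes. When counts were scaled by library totals in place of TMM factors, the members' median was 0.53 with 50 called, the median over all genes was 0.29, and the split over all genes turned to 2410 higher and 777 lower. Rpl10l, Rpl39l and Rpl3l had too few counts to be tested.

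Rps27 rose most, by 1.54 ± 0.18 on the log2 scale (SE; edgeR adjusted p = 0.00617), a fold of 2.90. Rps21 followed with 1.04 ± 0.17 (edgeR adjusted p = 0.0170), then Rps28 with 0.98 ± 0.13 (edgeR adjusted p = 0.0105) and Rpl38 with 0.95 ± 0.12 (edgeR adjusted p = 0.00780). The paralog forms Rpl22l1, with 0.93 ± 0.11, and Rps27l, with 0.86 ± 0.19, were called too. Further called members were Rps15a at 0.75, Rpl35a at 0.73 and Rpl36a at 0.72, with Rpl36al, Rpl21, Rpl22, Rps25, Rps24, Rpl26, Rpl32 and Rps18 between 0.51 and 0.63. All of these encode structural proteins of the ribosome or close copies of one.

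By role, 9 of 31 small subunit genes were called higher with a median of 0.36, 7 of 43 large subunit genes with a median of 0.25, and 3 of the 4 paralog forms tested with a median of 0.74. Of the stalk, which recruits the elongation factors, 0 of 3 genes were called. Rplp1 had 0.44 ± 0.14 and Rplp2 0.37 ± 0.14, while Rplp0, which anchors the other two, had 0.02 ± 0.18. The lowest members were Rpl10a at -0.32, Rpl27 at -0.32, Rpl29 at -0.24 and Rps2 at -0.22, of which 0 were called.

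Rps2, which lines the entry of the messenger RNA channel, illustrates the low end. It had 516 CPM in Con, its lowest value, 704 for SD 48 h and 585 for SASD 48 h, against 615 to 858 in the 7 other libraries with a median of 738. SD 48 h lay inside the range of the 7, and Con and SASD 48 h lay below it. Rpl27 had 211 CPM in Con and, at 48 h, 273 in SD and 221 in SASD against 255 to 359, so Con and SASD 48 h were again below.

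Members known for roles outside protein synthesis were found both among those called and among those not called. Rpl38 and Rpl22 were called, at 0.95 and 0.59, while the members that follow were not. Rps6, the substrate of the S6 kinases downstream of mTOR, had 460 CPM in Con, 533, 554, 498 and 597 in SD at 6, 12, 24 and 48 h, and 506, 605, 417, 489 and 601 in SASD at 6, 12, 24, 48 and 120 h. Its level at 48 h differed from the earlier times by 0.05 ± 0.14 on the log2 scale, less than the spread. Rpl5 and Rpl11, which bind Mdm2 when ribosome assembly is disturbed, had estimates of -0.21 ± 0.16 and 0.33 ± 0.15. Rps19, the gene most often mutated in Diamond-Blackfan anaemia, had 0.18 ± 0.13, Rpl13a -0.11 ± 0.17, Rps3 0.27 ± 0.14 and Rpsa 0.14 ± 0.17. The X-linked genes Rps4x and Rpl10 had 0.46 ± 0.14 and 0.28 ± 0.13, while Rpl36a, also X-linked, was called at 0.72 ± 0.14.

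The call rested on few libraries. Without SASD 48 h 1 member was called, without SD 12 h 3, without SD 6 h 4, without SASD 6 h 5, without SASD 12 h 6, without SD 48 h 7 and without SASD 24 h 11, while without SD 24 h 22 were. Rps27 was called in each of these fits, with estimates from 1.45 to 1.67. Red cell markers moved the other way at 48 h, with 9 of 9 called lower (median -4.37), and 4 of 7 monocyte markers were called higher (Fn1, Ccr2, Lyz2 and Ctss). Of the platelet markers 0 of 5 lay above 0 (median -1.55), with Gp9 and Ppbp called lower at -1.91 and -1.55. The B cell gene Ebf1 was called lower at -0.997 and the NK cell gene Gzma higher at 0.57. Time, the red cell content and the total counts of the libraries cannot be told apart in this contrast. Both 48 h libraries were low in haemoglobin and all 6 earlier ones were high. Both 48 h libraries also had more total counts than all 6 earlier ones. Con, also low in haemoglobin, was not part of this contrast. Con and both 48 h libraries all stood above the other 7 for 21 of 81 members averaging 10 counts or more. They stood below for 0 members, and 7.68% of all genes averaging 10 counts or more stood above in this way.

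The size of a member's estimate followed the length of its coding sequence. Across the 81 members Spearman's rho between length and the 48 h estimate was -0.63. Across 11928 other protein-coding genes of all lengths it was 0.06, with all values from the same 8 libraries. The other genes included those of over 1500 to 3000 bases (median 0.04) and over 3000 bases (median 0.16), classes with 0 members. The rho values therefore cover unlike lengths. The 10 tested members with up to 300 coding bases had a median of 0.72 with 5 called, against 0.21 for 249 other genes of that length. Members of over 300 to 450 bases had a median of 0.45 against 0.06, and those of over 450 to 600 bases 0.29 against 0.07. Those of over 600 to 900 bases had 0.15 against 0.02, and the 3 of over 900 to 1500 bases 0.03 against 0.02. The shortest of all departed from this order, with Rpl41 (75 coding bases) at 0.13 ± 0.13, Rpl39 (153) at 0.31 ± 0.14 and Rps29 (168) at 0.59 ± 0.17, none of the 3 called. Fragment sizes and RNA quality were not analysed here, and their part in the relation to length was not tested.

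**Figure D3:**
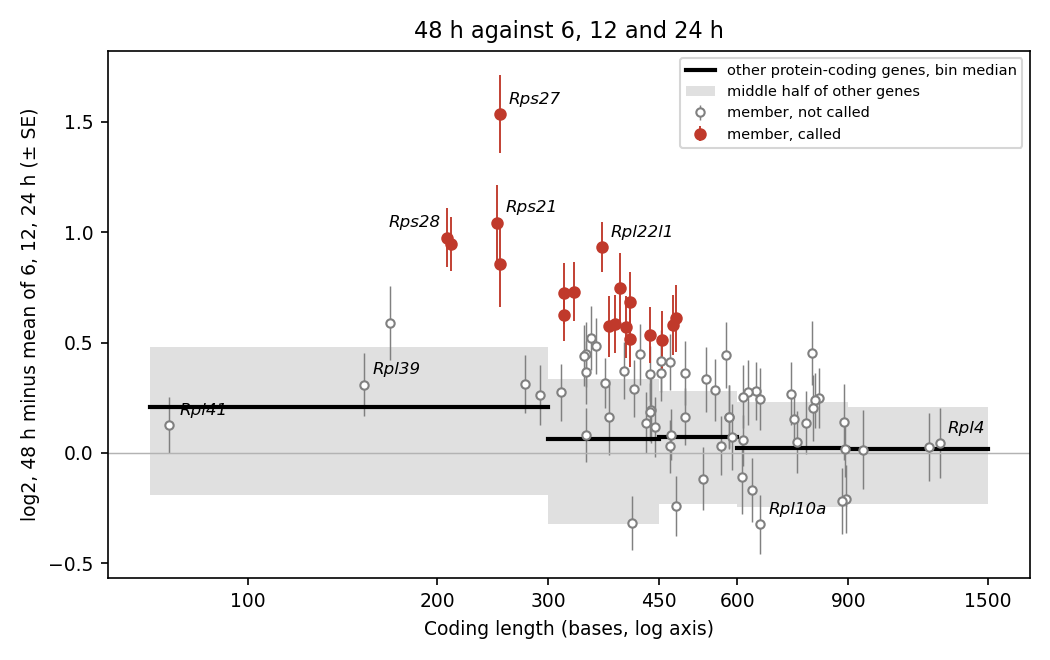
The log2 estimate (± SE) of each of the 81 tested members for 48 h against the mean of 6, 12 and 24 h, by coding length in bases on a log axis. Filled points were called by edgeR. Black lines and grey boxes give the median and interquartile range of other protein-coding genes in each length class. The 5 called members under 300 bases lie between 0.86 and 1.54, above the grey box, and members over 600 bases lie between -0.32 and 0.46.

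Against Con, ratios tended to be higher in members with longer coding sequences in the 7 libraries rich in haemoglobin. These 9 ratios share the Con library and have no replicate, so they are given side by side as descriptions of single libraries. The median log2 ratio of the members was -0.01 in SD 6 h, 0.10 in SD 12 h and -0.12 in SD 24 h, and -0.14 in SASD 6 h, 0.16 in SASD 12 h, -0.44 in SASD 24 h and 0.19 in SASD 120 h. With library totals all 3 SD medians were below 0, at -0.32, -0.23 and -0.43 in the same order. The SASD medians were then -0.46, -0.15, -0.95 and 0.01, so only SASD 120 h was not below Con among the 7. The members past 1.5-fold numbered 6, 8 and 5 of 81 in SD at 6, 12 and 24 h, against 22.1%, 29.2% and 27.3% of all genes. In SASD they numbered 12, 8, 26 and 8 of 81 at 6, 12, 24 and 120 h, against 27.0%, 24.3%, 33.7% and 21.8%.

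All 26 in SASD 24 h were lower than in Con, and their share of the members was near that of all genes. In that library Rps27 had a log2 ratio of -2.09, Rps21 -1.64, Rpl22l1 -1.51 and Rps28 -1.25, while Rps2 had 0.47, Rplp0 0.46, Rpl10a 0.38 and Rpl13 0.30. Rps27 was the lowest member in all 7 of these libraries, at -1.16, -1.15 and -1.17 in SD 6, 12 and 24 h and at -1.55, -1.07, -2.09 and -0.99 in SASD 6, 12, 24 and 120 h. Rpl22l1 was the next lowest in 5 of them, between -1.17 and -0.62, and Rps21 in the other 2. The highest members were Rpl27 (0.66) in SD 6 h, Rpl29 in SD 12 h (0.71), SD 24 h (0.42), SASD 6 h (0.63) and SASD 120 h (0.87), and Rps2 in SASD 12 h (0.73) and SASD 24 h.

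Rpl5, Rpl13 and Rpl10a made up the rest of the upper end. Rpl13 reached 0.36 in SD 24 h, 0.51 in SASD 6 h, 0.71 in SASD 12 h and 0.77 in SASD 120 h. Rpl10a reached 0.63 in SD 12 h, 0.61 in SASD 6 h and 0.67 in SASD 120 h. Rpl5 reached 0.51 in SD 6 h and 0.37 in SD 24 h. These are genes of the large subunit with coding sequences of 633 to 891 bases. Of the highest members named before them, Rpl27 has 408 coding bases, Rpl29 480 and Rps2 879. Across members, Spearman's rho between coding length and the ratio over Con lay between 0.47 and 0.69 in the 7 libraries. It was not computed for other genes, so whether this relation is particular to the members was not tested.

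The pair of 48 h libraries differed from Con in another way. In SD 48 h 80 of 81 members lay above Con and the ratios were even, with a median of 0.40 and quartiles of 0.35 and 0.45, a median fold of 1.32. Only Rpl7l1, at -0.01, did not, and rho with coding length was -0.08. Rplp0 had the highest ratio at 0.69, followed by Rpl23a at 0.57, Rps9 at 0.56 and Rps29 at 0.54, and Rpl22l1 at 0.16, Rpl22 at 0.18 and Rpl26 at 0.19 were near the low end. With library totals the median was 0.22. In all, 1 member was past 1.5-fold, against 23.0% of all genes.

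In SASD 48 h the median ratio over Con was 0.07, with quartiles of 0.02 and 0.13, and 0 members were past 1.5-fold against 17.9% of all genes. Among the extremes were Rps19 at -0.17, Rpl22l1 at -0.16 and Rpl13a at -0.13, and Rps26 at 0.26, Rpl23a at 0.28, Rpl10 at 0.32 and Rps27l at 0.42. The members were therefore close to Con in SASD 48 h and about a constant amount above it in SD 48 h.

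**Figure D4:**
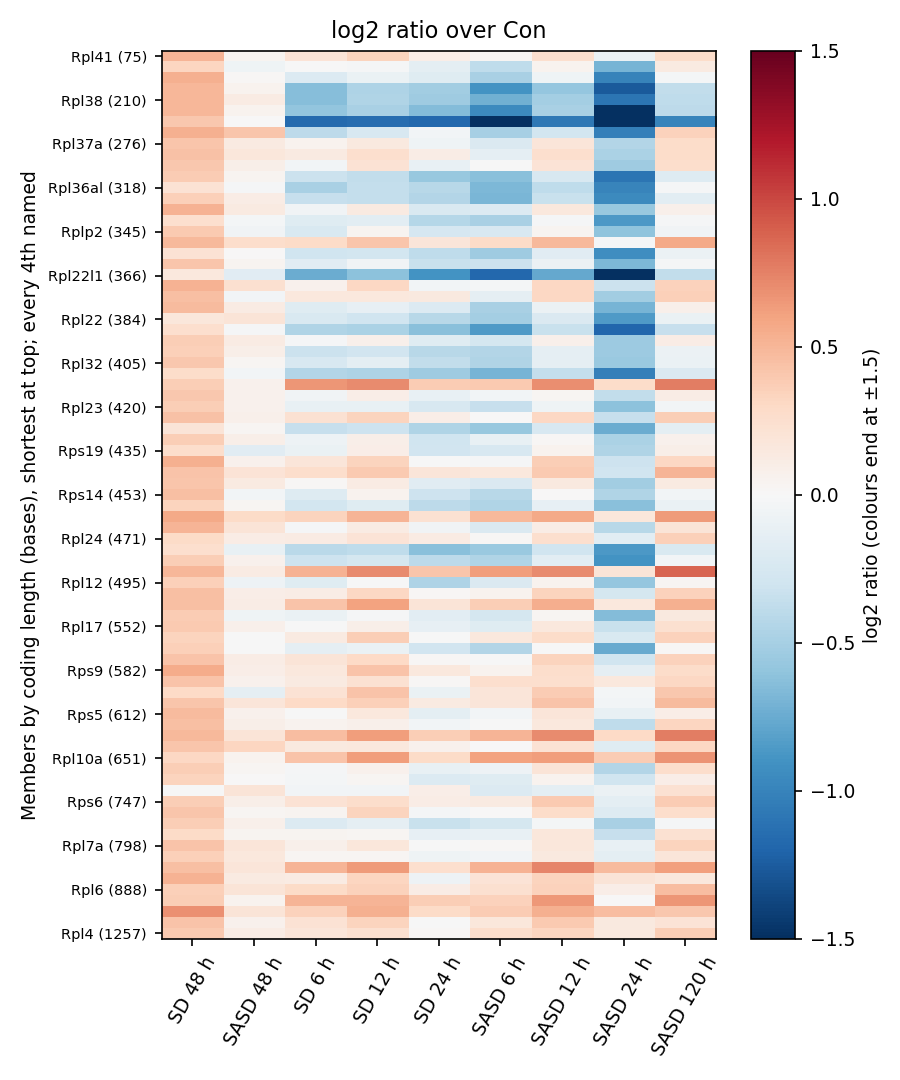
Log2 ratio over Con of TMM-scaled CPM for the 81 members averaging 25 counts or more in each pair, ordered by coding length with the shortest on top. Columns are single libraries. SD 48 h is evenly red (median 0.40) and SASD 48 h near white (median 0.07), while in the other 7 libraries blue lies mainly toward the top, most of all in SASD 24 h.

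SD and SASD were compared at each shared time. At 6 h the members' median log2 ratio of SD over SASD was 0.15 with 69 of 81 above 0, at 12 h -0.03 with 26 of 81, at 24 h 0.28 with 72 of 81, and at 48 h 0.32 with 80 of 82. With library totals the 24 h and 48 h medians were 0.48 and 0.19. Past 1.5-fold lay 0, 0, 7 and 1 members in the order of time, against 4.42%, 8.06%, 20.6% and 16.6% of all genes. The 12 h libraries were thus nearly alike for the members, and the others were higher in SD.

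At 24 h the ratio was 2.01 for Rps27l (95% counting interval 1.42 to 2.90), 1.99 for Rps21 (1.81 to 2.18), 1.89 for Rps27 (1.77 to 2.02) and 1.78 for Rps29 (1.66 to 1.91). At the low end were Rpsa at 0.836, Rps2 at 0.859, Rplp0 at 0.888 and Rpl3 at 0.903. The 10 members of up to 300 coding bases had a median log2 ratio of 0.66 and the 71 longer ones 0.26. SASD 24 h had the fewest counts, the most haemoglobin and the most platelet RNA of the 10 libraries, and the part of these in the ratio was not tested.

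At 48 h the ratio was even over the members. It was 1.41 for Rplp0 (95% counting interval 1.38 to 1.43), 1.41 for Rps14 (1.38 to 1.44), 1.44 for Rps29 (1.40 to 1.48), 1.41 for Rpl31 (1.37 to 1.46), 1.35 for Rps19 (1.31 to 1.39) and 1.22 for Rps6 (1.19 to 1.25). The low end held Rpl7l1 at 0.866, Rpl22 at 0.986, Rpl10 at 1.07 and Rps27l at 1.09. Rpl3l, the 1 member past 1.5-fold, rested on 25 and 26 counts and its interval ran from 1.04 to 3.37. At 6 h the extremes were Rpl22l1 at 1.34 and Rpl10a at 0.882, with Rps15a at 1.32, Rps27 at 1.31, Rpl39 at 1.30, Rpl29 at 0.929, Rpl19 at 0.927 and Rpl23a at 0.900. At 12 h the extremes were Rps9 at 1.12, Rpl22l1 at 1.11, Rps28 at 1.08 and Rpl7l1 at 1.08, and Rps24 at 0.903, Rpl31 at 0.905, Rpl30 at 0.907 and Rps3a1 at 0.907.

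**Figure D5:**
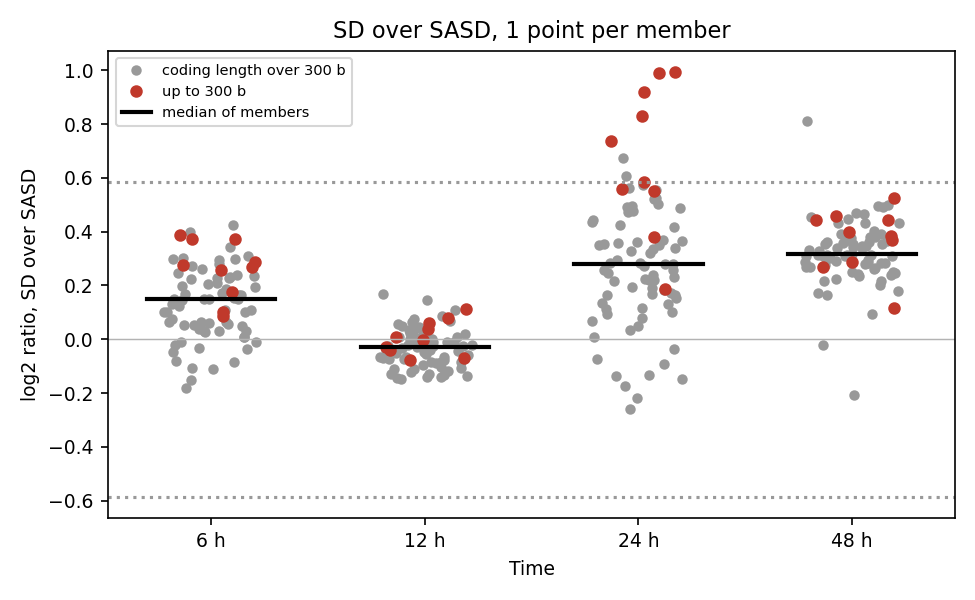
Log2 ratio of SD over SASD at each shared time, 1 point per member, with members of up to 300 coding bases in red, the median as a black line and 1.5-fold as dotted lines. The members centre on -0.03 at 12 h and on 0.32 at 48 h, and the short members reach 0.99 at 24 h.

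Cell type markers differed between SD 48 h and SASD 48 h as well. All 9 neutrophil markers and all 12 T cell markers were higher in SD 48 h, and 0 of 9 B cell markers were. So were all 6 platelet markers (in sum 2952 against 1588 CPM) and all 9 red cell markers (3431 against 2711 CPM), with 3 of 7 monocyte and 2 of 6 NK cell markers. Neutrophil markers summed to 11380 CPM in SD 48 h against 2124 in Con and 2468 in SASD 48 h, with 2040 to 7246 in the other 7 libraries. T cell markers summed to 4005 CPM in SD 48 h, 2716 in SASD 48 h and 2707 in Con. Their part in the members' ratio was not tested.

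Tested over the 4 times together, SD against SASD gave 0 called members and 0% of 13370 genes (edgeR), with 1103 genes and 8 members at an unadjusted p under 0.05. DESeq2 called 160 genes and limma 0, in each case with 0 members. All 8 of these members had a higher level in SD. The members' median was 0.18 against 0.01 over all genes, and 78 of 81 lay above 0, against 51.4% of all genes. Rps21 had the largest estimate at 0.45 ± 0.16 (edgeR adjusted p = 0.510), before Rps27 at 0.41, Rps29 at 0.40 and Rps28 at 0.39, and the lowest adjusted p was 0.366, for Rpl22l1 at 0.37 ± 0.11. Rps2, Rpl4, Rpl10a and Rpsa lay between -0.01 and 0.01. The estimates again followed coding length, with rho of -0.75 across members and -0.22 across other protein-coding genes of all lengths.

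The 12 h libraries were compared with those at 6 and 24 h in the same fit. Here too 0 members and 0% of all genes were called by edgeR, with 469 genes and 18 members at an unadjusted p under 0.05. DESeq2 called 10 genes and limma 0, again with 0 members. The members' median was 0.29 against 0.01 over all genes and 80 of 81 lay above 0, against 51.8% of all genes. Rps21 had 0.48 ± 0.19, Rplp1 0.42 ± 0.15, Rpl30 0.41 ± 0.16 and Rps16 0.41 ± 0.16, while Rpl7, Rpl4, Rpl19 and Rpl7l1 were lowest at 0.15, 0.13, 0.10 and -0.03. T cell markers lay above 0 in 12 of 12, platelet markers in 4 of 5, neutrophil markers in 4 of 9 and NK cell markers in 2 of 6. Above 0 lay 0 of 7 monocyte markers (median -0.76), 0 of 9 red cell markers (median -0.53) and 0 of 9 B cell markers (median -0.12). None of these markers was called, and their part was not tested.

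Trends were fitted within each method from Con on, as a slope per doubling of 1 plus the hours over 6. In the SD trend 0 of 82 members were called against 0.124% of 14562 genes (edgeR), with 0 members at an unadjusted p under 0.05. All 82 slopes lay above 0 with a median of 0.09, but without SD 48 h the median was -0.03. Rpl3l had the largest slope at 0.61 ± 0.34 on few counts, followed by Rplp0 at 0.18 ± 0.09, Rps27l at 0.17 and Rps9 at 0.15, and Rpl26, Rpl22, Rpl22l1 and Rpl7l1 had 0.04, 0.03, 0.03 and 0.02. In the SASD trend 0 of 81 members and 0% of 14602 genes were called, with 454 genes and 0 members at an unadjusted p under 0.05. DESeq2 and limma called 0 genes in the SASD trend and 437 and 90 in the SD trend, with 0 members in each. The SASD slopes had a median of 0.03, which was -0.02 without SASD 120 h, and ran from -0.07 for Rps27 to 0.13 for Rps27l.

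Rplp2 and Rps15a had SASD slopes of -0.02 each, and Rpl27, Rpl29 and Rpl13 had 0.09 each. The SD slope minus the SASD slope was tested with a shared Con and without SASD 120 h, so its SASD slope covers the times up to 48 h only and is not the slope given above. In this difference of trends 0 of 82 members were called against 0.424% of 14138 genes, with 0 members at an unadjusted p under 0.05 (edgeR), and DESeq2 and limma also called 0 members. All 82 differences lay above 0, against 48.1% of all genes. The members' median was 0.09, which was 0.01 without SD 48 h and 0.04 without SASD 24 h. Rpl3l, Rps29, Rps21 and Rps28 had the largest, at 0.30, 0.18, 0.18 and 0.17, and Rpl4, Rpl10a, Rps2 and Rpl7l1 the smallest, at 0.02, 0.02, 0.01 and 0.00. A level of 48 h above earlier times was seen in both methods: both 48 h libraries lay above all 6 earlier ones for 32 of the 84 members, 31 of them among the 81 averaging 10 counts or more, and below for 0, against 15.6% of all genes above.

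The paralog forms were set against their parents per coding length. Rpl22l1, the close relative of Rpl22, which T cell development needs, stood at 27.3% of Rpl22 in Con (95% counting interval 25.9% to 28.6%), 27.0% in SD 48 h and 21.2% in SASD 48 h, against 17.1% to 22.6% in the other 7 libraries. SASD 48 h lay inside that range, so the libraries overlapped. Rps27l, a target of the tumour suppressor Trp53, stood at 1.73% of Rps27 in Con and, at 48 h, 1.90% in SD and 2.32% in SASD against 2.95% to 4.36%, so that the form was a smaller part where Rps27 was high. Rpl36al stood at 38.4% to 48.3% of Rpl36a and Rpl7l1 at 7.08% to 10.3% of Rpl7 over all 10 libraries, with Con and the pair at 48 h inside or next to the range of the rest.

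The forms known from testis and muscle had few counts. Rpl10l, expressed in testis, had 7 counts in Con and 0 in the other 9 libraries, where 3 counts would have been 0.106 to 0.459 CPM. Rpl39l, also known from testis, had 12 counts in Con, 10 in SASD 48 h and 0 to 6 elsewhere. Rpl3l, the striated muscle form, had 16 counts in Con, 25 in SD 48 h, 26 in SASD 48 h and 1 to 8 in the rest. Reads shared between near copies were not counted, so the forms' shares are uncertain.

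Other genes of the pathway were read from the same fit, in which 3.58% of all genes were called higher and 9.97% in either direction. Of 23 further translation genes with TOP messenger RNAs, 1 was called higher at 48 h (Eef1b2, an elongation factor subunit, 0.57 ± 0.13) and 1 lower (Pabpc1, the poly(A)-binding protein, -2.13 ± 0.32), with a median of 0.05. The most abundant among them, Eef1a1 and Tpt1, had 0.21 ± 0.21 and -0.10 ± 0.17. Of 48 ribosome assembly genes 2 were called higher, Mdn1 at 0.86 and Nop10 at 0.83, with a median of 0.10, and the nucleolar proteins Ncl and Fbl had 0.19 ± 0.13 and -0.01 ± 0.10. Of 78 mitochondrial ribosomal proteins 3 were called higher (Mrpl20, Mrpl33 and Mrpl18, 0.54 to 0.64) with a median of 0.19. Of 28 genes of translation and mTOR control 2 were called higher (Mlst8 and Mtor, subunits of the mTOR complexes, at 0.55 and 0.44) and 2 lower (Akt1s1 at -0.76 and Max at -0.95), and Myc had -0.01 ± 0.15. In the difference of trends Mrpl33 was called (0.36 ± 0.05, edgeR adjusted p = 0.0292) alone among these lists.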

How the data were processed

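Read pairs were counted per gene over exons by the authors with featureCounts 2.0.3 and the mm10 annotation of a 10x Genomics reference, per the file headers, and the deposited values were raw counts. Per the file headers no strand option was set, and reads mapping to several places or overlapping several genes were not counted. Ribosomal protein genes have many near-identical pseudogenes, so their levels may be too low, and antisense or overlapping genes are uncertain. Trimmomatic 0.39, STAR 2.7.9a and mm10 are named per the submitters' processing notes.

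Gene types, positions and coding lengths (of the principal transcript, without the stop codon) were read from GENCODE vM21, which may differ from the authors' annotation. Of the 32285 genes 127 had no symbol there. Start windows came from RefSeq (GRCm38.p6), which lacked 20 members in the table used. Of genes with several starts (10 members) each start was searched.

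Counts were scaled with TMM factors from edgeR 4.0.16 (R 4.3.3). Genes averaging 10 counts or more over the libraries of a fit entered its quasi-likelihood test, with Benjamini-Hochberg adjusted p-values over all of them and a threshold of 0.05. The 8-library fit had method and time as factors (3 residual degrees of freedom). Trends used 5 (SD), 6 (SASD) or 9 libraries (difference). DESeq2 1.42.0, limma-voom (limma 3.58.1), scaling by library totals, TMM factors computed without members and haemoglobin genes, no minimum count and leaving out each library in turn were tried as alternatives. With 1 pooled library per group, p-values measure the spread between these libraries, part of which may be technical. Single-library log2 ratios used a prior count of 2 and genes averaging 25 counts or more in the pair, and counting intervals were exact binomial at 95%. The fits were tested on simulated counts.

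The members, lists and contrasts were chosen with earlier results of these data known. Named genes are up to 10 called members per fit and direction, the 4 highest and lowest members per fit and ratio, the paralog forms with their parents, the stalk genes and a set of regulators. From other lists, called genes are named (up to 5 per list and direction) with Eef1a1, Tpt1, Ncl, Fbl and Myc. Some genes that this rule picks are not reported here.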

Additional observations from a re-analysis of the deposited data

How the results depend on the processing

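In the comparison of 48 h with earlier times, the 19 called members were called also by DESeq2 (26 members in all), limma (19), with library totals (50), with TMM factors computed without members and haemoglobin genes (19) and with no minimum count (24). Leaving out 1 library gave 1 to 22 called members, and all genes called went from 1333 to between 124 and 2048, with 3187 under library totals and 2843 with no minimum count. Library totals took the median of SD over SASD at 48 h from 0.32 to 0.19 and turned SD 12 h and SASD 12 h over Con to -0.23 and -0.15. They also turned Rps2 at 48 h to 0.0251. In SD against SASD, estimates close to 0 changed sign: Rpsa was -0.0058 with DESeq2 and -0.0145 with limma, Rpl10a was 0.0147 and 0.0053 and Rpl4 0.0117 and 0.0020 with library totals and with the other TMM factors, and Rps2 was 0.0032 with library totals. Leaving out 1 time gave -0.0866 to 0.0590 for Rpl10a, -0.0962 to 0.0361 for Rpl4, -0.103 to 0.0530 for Rps2 and -0.113 to 0.0960 for Rpsa. Leaving out 1 library moved the members' median slope to between -0.0264 and 0.151 in SD and between -0.0250 and 0.0681 in SASD. In SD against SASD, DESeq2 called 160 genes, no minimum count 389 and leaving out 6 h 245 against 0. For 12 h these were 10 (DESeq2) and 38 (no minimum count). In the SD trend 18 became 437 (DESeq2), 90 (limma), 63 (no minimum count), 0 (linear hours), 842 (a term for low-haemoglobin libraries) and 0 to 465 without 1 library, in the SASD trend 0 became at most 1, and in the difference of trends 60 became 268 (DESeq2), 124 (limma) and 0 to 135. No member was called in any of these fits under any alternative run. Depth limits Rpl10l, Rpl39l and Rpl3l, which had at most 26 counts in a library.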
